A study of Mus musculus with 16 samples.

Results

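The 8 WT libraries of a SLAM-seq chase in mouse leukemia cells are described here, as the order in which transcripts lost their label. They were chosen by label from 16 libraries: WT at 0, 0.5 and 1 h of chase (early, 3 libraries), at 3 and 6 h (the path between, 2 libraries) and at 12, 18 and 24 h (late, 3 libraries). The other 8 libraries are YBX1-/- cells at the same times and serve as a comparison. The cells came from bone marrow of C57BL/6 mice. All groups, WT included, were labelled with 50 µM 4-thiouridine (4sU) for 24 h, washed, and moved to medium with 10 mM uridine. How the leukemia was made, how many mice gave cells and how many clones were used is not stated in the labels. Each gene was represented by the interval at its transcript end with the highest mean CPM (read counts scaled to library size, the authors' mean over all libraries). Of 21177 genes in the table, 6027 reached a mean CPM of 5. Of these, 5972 had a rate above 0 in all 3 early libraries and were fitted, and 55 did not and were left out. At the edge of that minimum, Kbtbd4 (4.9982) and Galnt2 (4.9982) fell outside, and Ttyh3 (5.0003) and Gramd1a (5.0004) inside.

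In SLAM-seq, 4sU enters RNA while it is made, and a chemical step makes labelled bases read as C instead of T. After the label is withdrawn, labelled molecules are degraded and new unlabelled ones take their place, so the T-to-C rate of a transcript falls. In mammalian cells mRNAs of transcription factors, early response genes and cell cycle regulators are known for fast turnover, often through elements in their untranslated regions. Messages of ribosomal proteins, metabolic enzymes and abundant secreted proteins are known for slow turnover. Decay and dilution by new RNA cannot be told apart in these rates, so the text speaks of loss of label. A rate is a share and says nothing of how abundant the transcript is.

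There was 1 library per time, and the labels do not name replicate cultures, so the libraries of a phase stand in for repeats and every p-value measures the scatter between time points. The depth of each library is unknown, since the table gives rates and mean values only. An exact 0 can mean few reads, and the number of genes at 0 was 0 in each early library, 70 and 50 on the path, and 761, 1023 and 1587 in the late libraries. No unlabelled library was among those used here, so background conversions were not subtracted. Of 10 myeloid markers 9 reached the CPM minimum, led by the lysozyme gene Lyz2 (7375.6 CPM), while the receptor gene Kit was at 1.94. None of 5 erythroid and none of 5 stromal or endothelial markers reached it. Of 5 T and NK markers Nkg7 (11.2) did, of 5 B cell markers Cd79b (7.39), and of 4 megakaryocyte markers Pf4 (39.8) and Ppbp (28.1), with Cd3e at 0.115, Cd79a at 0.077 and Gp9 at 0.15. These CPM values are means over both genotypes.

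Label stayed near its early level for 1 h, lay near 50% of it in the typical transcript at 3 h and was nearly gone at 12 h. Over the fitted genes, median rates were 42.8, 49.3 and 43.6% in the early libraries. On the path they were 20.2 and 10.2%, and in the late libraries 2.15, 1.10 and 0.889%. The 0.5 h library was above the 0 h library in 4474 genes (74.9%), although the chase had begun. Set against each gene's mean of the 3 early libraries, the median share of label left after 3 h was 45.66%, with quartiles of 30.79 and 62.34%, and 57.17% of genes had lost 50% by then. Among genes with a mean CPM of at least 20 the median at 3 h was 53.5% and that share of genes 43.21%, and among genes with rates above 0 in every library they were 50.37% and 49.47%. After 6 h it was 22.74% (quartiles 16.51 and 32.7%), after 12 h 4.82% (2.43 and 8.45%) and after 24 h 1.95% (0 and 3.74%). The median SD between libraries of a phase, on log2 rates centred on the library median, was 0.174 for early, 0.348 for the path and 0.975 for late.

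**Figure D1:**
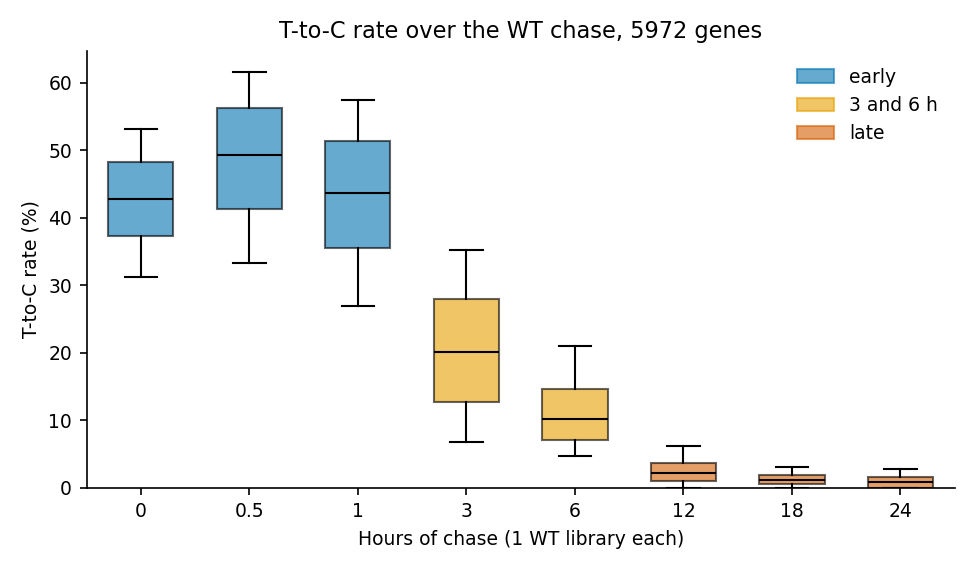
T-to-C rate in percent (y) of 5972 genes in each WT library, by hours of chase (x); boxes span the quartiles, the line is the median and whiskers reach the 10th and 90th percentiles. The 3 early medians lie between 42.8 and 49.3%, and the late medians at 2.15% or below.

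Late rates lay below early rates in almost every transcript. With limma on log2(rate in percent + 0.1), 5906 of 5972 genes fell between the early and late libraries at an adjusted p under 0.05 (98.9%), and 0 rose; 5907 had an unadjusted p under 0.05. Of the 66 that did not fall past the threshold, 48 had an early mean under 10%. The time at which a gene first reached 50% of its early mean, on straight lines between libraries, gives the order of loss. By 3 h 3414 genes (57.2%) had lost 50% of their label, between 3 and 6 h another 2066 (34.6%), between 6 and 12 h 454 (7.6%), after 12 h 32 (0.536%), and 6 (0.1%) did not reach it. These windows describe the WT rates and carry no test.

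Among the first to lose label were the short-lived regulators, a list of early response genes, labile survival factors and mRNA decay activators. Of its 42 fitted members, 36 lost 50% of their label by 3 h, beside 57.17% of all fitted genes, and the other 6 by 6 h. Their median share left was 31.11% at 3 h and 15.79% at 6 h, beside 45.66 and 22.74% over all fitted genes. Mcl1, an inhibitor of apoptosis, had rates of 44.3, 50.4 and 37.8% in the early libraries, 14.2% at 3 h, 7.55% at 6 h, and 1.77, 0.994 and 1.18% in the late libraries. The 3 h value already lay far below all 3 early ones. Ier2, an immediate early gene, had 29.6, 31.5 and 26.7% early, 8.36 and 5.72% on the path and 0, 1.46 and 0.279% late. Btg1, an activator of mRNA deadenylation that is also on the list of RNA decay factors, had 48.1, 47.3 and 38.1% early and stood at 8.99% at 3 h and 8.93% at 6 h, before 2.47, 0.7 and 1.38% late. At 3 h its share left was 20.2%. Id2, an inhibitor of helix-loop-helix factors, kept 38.18% at 3 h and 16.87% at 6 h.

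Junb and Myc, both transcription factors of the growth response, were measured at lower CPM and scattered more within the early phase. Junb had 27.8, 39.6 and 13.2% early, 8.80 and 5.15% on the path and 1.85, 0.84 and 0.98% late. Myc had 43.3, 57.3 and 23.2% early, 20 and 6.25% on the path and 0, 0.597 and 0% late. In both, the 1 h library was the lowest of the early phase. Bcl2, an apoptosis inhibitor with a mean CPM of 6.49, had 35.7, 61.3 and 22.2% early, 0 and 9.45% on the path and 0% in all 3 late libraries. Its 0 at 3 h lies below its value at 6 h, so its time of 50% loss is uncertain. Of the 12 fitted genes of the Bcl2 family, 9 lost 50% by 3 h, beside 57.17% of all fitted genes. The family's median share at 6 h was 16.95%. Bax, a promoter of apoptosis, kept more at 3 h (60.59%) than Mcl1 (32.12%).

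AU-rich elements are known in many such messages. To show them, the stretch around the first TTATTTATT, the core AU-rich element bound by the Zfp36 proteins, is printed for the 4 short-lived regulators with the highest CPM that hold one. Sequences are GENCODE transcripts of GRCm38, 5′ to 3′ on the gene's strand, with the element in capitals.

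Zfp36: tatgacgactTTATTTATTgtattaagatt
Nfkbia: ggaccacgttTTATTTATTgtgcttttgat
Zfp36l1: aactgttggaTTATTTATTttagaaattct
Cish: tatacagtatTTATTTATTtattctccttg

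The Zfp36 stretch lies on chromosome 7 from 28376950 to 28376979 (minus strand), that of Nfkbia on chromosome 12 from 55489607 to 55489636 (minus), that of Zfp36l1 on chromosome 12 from 80108166 to 80108195 (minus) and that of Cish on chromosome 9 from 107301377 to 107301406 (plus). Zfp36 itself, which binds such elements, had 40.3, 46.1 and 32.5% early, 13.3 and 6.94% on the path and 2.36, 0.712 and 2.19% late. Zfp36l1, its paralog, had 49.9, 48.8 and 42.8% early and 14.5 and 10% on the path. Both lay below 50% of their early mean at 3 h. The element was found on the gene's strand in 11 of 42 intervals of the list (26.2%), beside 7.35% of all 5961 intervals with sequence, and ATTTA, which lies within it, in 38 (90.5%), beside 71.73%. The list's median interval length was 1253.5 bases, against 1246 overall. TTATTTATT was also found in 19.3% of Zfp zinc finger genes, 16.7% of G2/M genes and 10.2% of chromatin regulators. It was in 0% of cytosolic ribosomal protein genes. A match says that the letters are present and does not show a bound site.

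Regulators of stem cell and leukaemia programmes lost label in the same windows. Of 29 fitted members, 23 lost 50% by 3 h and 6 between 3 and 6 h, beside 57.17 and 34.59% of all fitted genes. The list's median share left was 35.22% at 3 h and 18.46% at 6 h. Hoxa9, a homeobox factor of myeloid leukemia, had 43.0, 61.2 and 41.9% early, 19.4 and 10.1% on the path and 2.37, 0.794 and 0% late. Meis1, its cofactor, had 42.9, 44.9 and 31.3% early, 6.52 and 8.08% on the path and 2.37, 1.3 and 3.62% late. Meis1 was thus below Hoxa9 at 3 h and above it at 24 h. Fli1, an ETS factor, had 56, 56 and 55.6% early, among the closest early values of the list, then 15.0 and 11.5% on the path and 0.494, 1.09 and 0.746% late. Lmo2, a haematopoietic adaptor protein, kept 35.22% at 3 h and 19.79% at 6 h. Cdk6, the cell cycle kinase with the highest CPM of the list (1787.9), kept 46.03% and 23.16%, close to the values over all fitted genes.

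The motif TGTANATA, where N is any base, is the sequence bound by Pumilio proteins, and it was found in 13 of the 28 intervals of this list with sequence (46.4%), in 18 of 42 (42.9%) of the short-lived regulators and in 27.68% of all intervals. Other lists held it as well, with 54.2% of chromatin regulators, 41.7% of G2/M genes and 31.6% of Zfp zinc finger genes. It was rarer in cytosolic ribosomal protein (15.2%), myeloid granule (8.0%) and respiratory chain genes (2.6%). The stem and leukaemia list's median interval length was 1547.5 bases, against 1246 overall. TGTANATA is printed below for 3 genes, the motif in capitals. They have the highest CPM among those members of that list and of the short-lived regulators in which it was found.

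Mcl1: tctgtaaaaatTGTATATAtttttacagaa
Zeb2: tgaattgaaatTGTACATAtttagtaaatc
Id2: actgaatgctgTGTATATAtttatatataa

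They lie on chromosome 3 from 95661524 to 95661553 (plus strand) for Mcl1, on chromosome 2 from 44983823 to 44983852 (minus) for Zeb2 and on chromosome 12 from 25094111 to 25094140 (minus) for Id2. Zeb2, a zinc finger repressor, had 46.4, 56.9 and 53.2% early and 26.1 and 10.2% on the path, so that it kept 50.12% at 3 h.

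Among cell division genes, the G2/M list had a low share left at 6 h and the S phase list lay near all fitted genes. Of 24 fitted G2/M genes, 15 lost 50% by 3 h, beside 57.17% of all fitted genes, and 9 between 3 and 6 h. Their median share at 6 h, 12.79%, was the lowest of the lists with at least 5 fitted members. Birc5, an inhibitor of apoptosis that also acts in mitosis, had 45.0, 65.6 and 33.3% early, 19.9 and 7.97% on the path and 1.18, 0.576 and 1.99% late. Cks1b, a partner of cyclin-dependent kinases, kept 80.69% at 3 h but 19.38% at 6 h. Of 29 fitted S phase genes, 15 lost 50% by 3 h, and the list kept a median of 48.71% at 3 h and 22.3% at 6 h, beside 45.66 and 22.74% over all fitted genes. Rrm2, a subunit of ribonucleotide reductase, kept 15.83% at 3 h and 7.35% at 6 h with early rates of 34.0, 66.1 and 32.7%. In Rrm2 the 0.5 h library stood far above the other two early libraries. Cdk1, the mitotic kinase, chosen after its values were seen, had 63.8, 71.8 and 61.9% early, 3.33 and 0.952% on the path and 3.48, 0 and 1.09% late.

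Further lists, of zinc finger, cholesterol, RNA decay, m6A and chromatin genes, had medians below those of all fitted genes. Of 58 fitted Zfp zinc finger genes, 50 lost 50% by 3 h, beside 57.17% of all fitted genes. The Zfp genes kept a median of 29.23% at 3 h and 19.11% at 6 h. Their intervals were long, with a median of 2046 bases. The 19 genes of cholesterol synthesis and uptake had 32.21% and 17.76%, the 38 RNA decay factors 37.43% and 20.26%, the 17 genes of the m6A machinery 39.01% and 19.28%, and the 59 chromatin regulators 40.91% and 17.96%. Median CPM was 8.28 in the Zfp list, 9.42 in the cholesterol list and 9.52 in chromatin regulators, against 13.67 over all fitted genes. It was 16.1 in RNA decay factors and 16.97 in the m6A list. Within the cholesterol list Npc2, a lysosomal cholesterol carrier, kept 53.35% at 6 h, while Insig1, a sterol sensor, kept 16.34%. In the m6A list Ythdf2, a reader that recruits deadenylases, kept 17.97% at 6 h and Ybx3, a paralog of Ybx1, 36.6%. Ybx1 itself had 55.2, 61.4 and 56.8% early, 50.1 and 38.9% on the path and 15.5, 7.29 and 5.08% late. It kept 67.39% at 6 h, the most of the m6A list. In the YBX1-/- libraries its rates ran from 3.08 to 72%, and as a share they say nothing of its abundance and leave the genotype unchecked.

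Lists of housekeeping machinery without one common time lay between. The 59 mitochondrial ribosomal proteins (54.42% at 3 h, 23.84% at 6 h), 52 translation factors (54.04 and 24.4%) 22 chaperones (52.62 and 21.07%) and 79 solute carriers (44.24 and 21.96%) were near the overall median. The 38 proteasome genes had 61.78% at 3 h and 30.78% at 6 h. Members differed within these lists. Among translation factors Eef1a1, the elongation factor that carries tRNA, had 57.4, 64.2 and 62.6% early, 51.7 and 39.3% on the path and 16, 6.84 and 5.56% late. Eif4a1, the initiation helicase, had 44.3, 47.8 and 37.7% early, 20.7 and 7.36% on the path and 0.977, 0.864 and 0.89% late. At 6 h Eef1a1 kept 63.95% and Eif4a1 17.03%. The 16 cytokines and chemokines (45.9 and 22.47%) were split in the same way, with 51.07% left at 6 h for Ccl6 and 18.84% for Ccl7.

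Messages of the cytosolic ribosome, the respiratory chain, glycolysis and myeloid granules kept the largest median shares at 3 and 6 h among lists with at least 5 fitted members. Median CPM in these lists was 19.16, 26.69, 72.92 and 114.1 in that order, against 13.67 over all fitted genes. The part of CPM in the order of the lists was not tested. Of 84 ribosomal protein genes on the list 33 were fitted, with a median interval of 222 bases, against 1246 over all fitted genes. Of these 33, 24 lost 50% between 6 and 12 h and 4 after 12 h, beside 7.6 and 0.54% of all fitted genes. The fitted members kept a median of 84.43 and 68.38% on the path, 32.68% after 12 h and 6.93% after 24 h. Rpl41 had 43.8, 44.7 and 46.5% early, 38.1 and 39.3% on the path and 20.4, 12.1 and 8.46% late. Its late values remained below its early ones in each library, but at 12 h it still held more than the median gene did at 6 h. Rps9 had 43.5, 43.6 and 39.9% early, 27.5 and 29.9% on the path and 12.4, 6.35 and 2% late. Rps27l, a paralog of Rps27, kept less at 6 h, 54.16%.

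Among 50 myeloid granule and maturation genes, 28 lost 50% between 6 and 12 h, beside 7.6% of all fitted genes, and 2 later. The granule genes kept a median of 72.32% at 3 h and 58.02% at 6 h. Their median interval length was 320 bases. Lyz2, the lysozyme of myeloid cells and the gene with the highest CPM of the list, had 46.0, 49.2 and 51.2% early, 36.6 and 33.9% on the path and 13.6, 5.62 and 3.36% late. Chil3, a chitinase-like secreted protein, had 21.2, 26.8 and 27.0% early, 19.8 and 21.6% on the path and 18.5, 15.1 and 8.20% late. Chil3 reached 50% of its early mean only after 18 h, at 20.25 h. Elane, neutrophil elastase, chosen after its values were seen, had 22.1, 24.1 and 20.1% early, 18.9 and 20.3% on the path and 6.94, 5.21 and 3.16% late. Its 6 h library thus lay within its early range. Ngp, a granule protein, had 21.7, 22.7 and 21.3% early and 15.7 and 15.1% on the path. S100a8, a calcium-binding protein of neutrophils, had 20.3, 20.6 and 20.7% early, 16.4 and 15.4% on the path and 9.04, 3.88 and 4.24% late. Mpo, myeloperoxidase, had 59.1, 33.3 and 57.1% early, 25 and 100% on the path and 0, 46.7 and 18.2% late, a scatter that allows no statement on its loss.

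Of 77 respiratory chain genes, 44 lost 50% between 6 and 12 h, beside 7.6% of all fitted genes. The respiratory chain genes kept a median of 74.55% at 3 h and 56.24% at 6 h. Their median interval length was 197 bases. Cox7a2, a subunit of cytochrome oxidase, had 51.2, 52.3 and 52.7% early, 45.2 and 34.1% on the path and 12.1, 5.02 and 3.37% late. Ndufa7, a subunit of complex I, had 36.1, 36.0 and 38.0% early, 29.8 and 30% on the path and 11.7, 4.56 and 1.93% late. The 11 glycolysis genes kept 74.34% at 3 h and 53.11% at 6 h. Pkm, pyruvate kinase, kept 65.41% at 6 h and Tpi1, triosephosphate isomerase, 39.82%. Gapdh had a mean CPM of 0.297 in its highest interval and was not fitted. Lysosomal genes (31 fitted; 65.59 and 41.11%) and the cytoskeleton (34 fitted; 66.48 and 40.64%) came next. Actb, cytoplasmic actin, had 54.4, 50.3 and 45.9% early, 39.7 and 31.2% on the path and 7.30, 2.17 and 2.06% late, while Tubb5, a tubulin, kept 24.45% at 6 h against 62.07% for Actb.

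**Figure D2:**
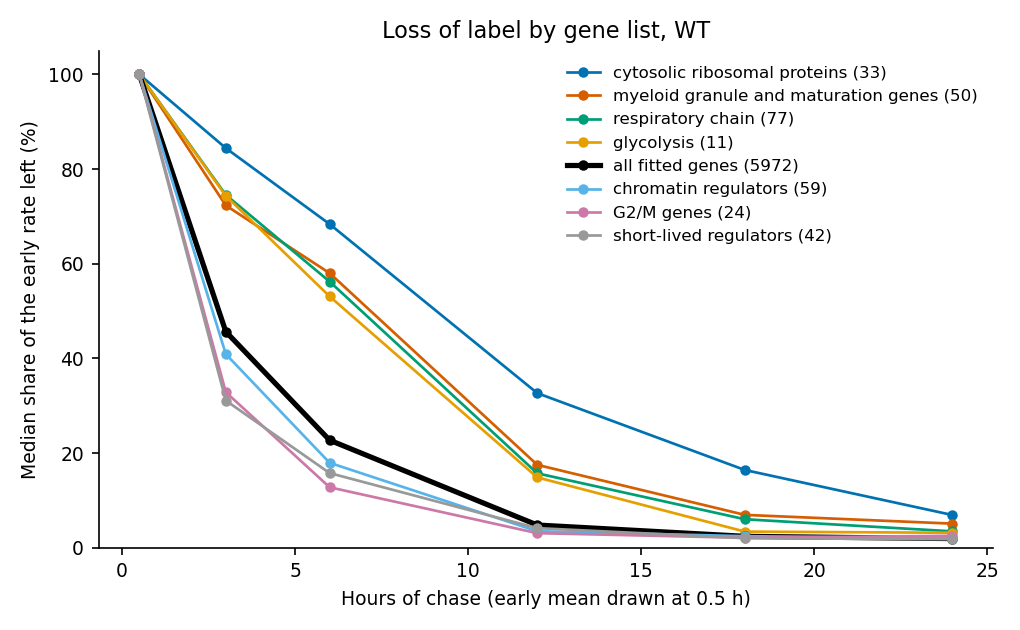
Median share of the early rate left in percent (y) by hours of chase (x) for 7 gene lists and for all 5972 fitted genes (thick black line), with the number of fitted genes in brackets; the early mean is drawn at 0.5 h as 100. At 6 h the lists run from 12.79% (G2/M genes) to 68.38% (cytosolic ribosomal proteins).

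**Figure D3:**
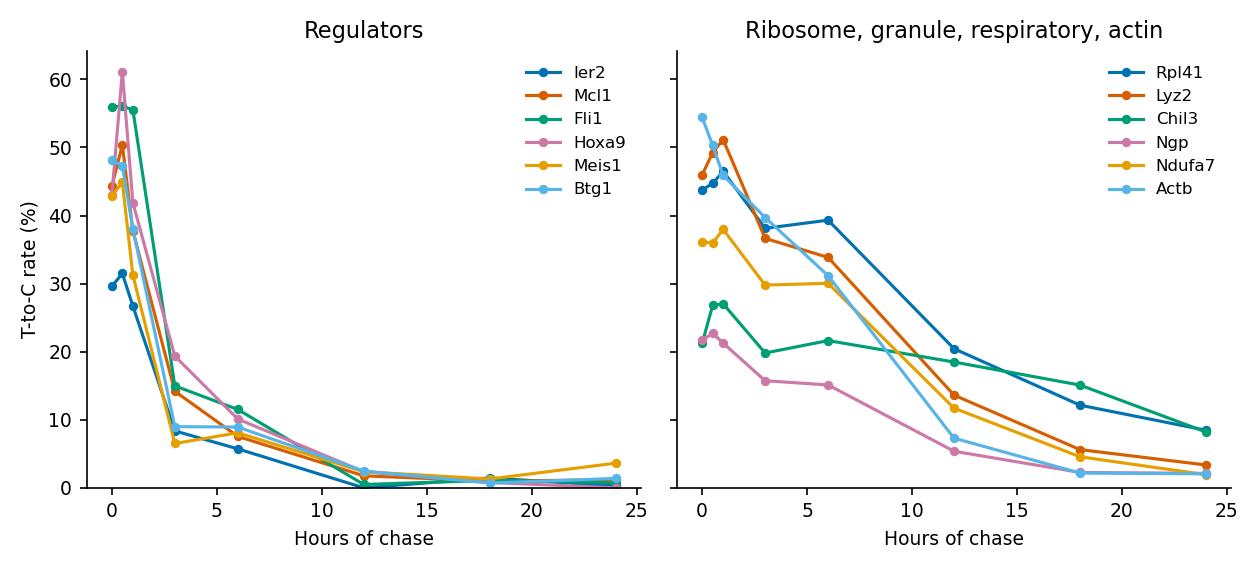
T-to-C rate in percent (y) by hours of chase (x, 1 WT library per point) of 6 regulators (left) and of 6 genes of the late-losing lists (right). At 3 h the 6 regulators lie between 6.52% (Meis1) and 19.4% (Hoxa9), while Rpl41 is at 38.1%.

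The late libraries were then compared with the early ones relative to the typical gene, by centring each library on its median. Ribosomal, respiratory and granule messages stood above the typical gene in this fit. At a limma adjusted p under 0.05, 385 of 5972 genes held more label late than the typical gene (6.45%) and 147 less (2.46%); 1225 had an unadjusted p under 0.05. Higher were 25 of 33 cytosolic ribosomal proteins, 28 of 50 myeloid granule genes, 30 of 77 respiratory chain genes, 7 of 31 lysosomal genes and 5 of 34 cytoskeletal genes, and none of these 5 lists had a lower member. With weights per group, chosen after the data were seen, these counts were 18, 14, 11, 3 and 0. Of 11 glycolysis genes 1 was higher, a share near that of all fitted genes, and 0 with the weights. Of 42 short-lived regulators 0 were higher and 3 lower, and of 24 G2/M genes none was called. These counts come from the same rates as the shares above and are not separate evidence. The median centred difference was 2.31 log2 for ribosomal proteins, 1.54 for granule genes and 1.15 for the respiratory chain, beside -0.23 over all fitted genes. The phases differ in spread, and with the weights 135 genes were higher (2.26%) and 0 lower. With any 1 early library left out, 136 to 163 genes were higher and 1 lower. In simulated data whose phases differed in spread, the late fit without weights made 15 false calls, or 57 where each gene had its own spread. Beside the 15 it recovered 3 of 100 genes changed by 1 log2 and 52 of 100 changed by 3 log2. Beside the 57 it recovered 9 and 51. That is more false calls than the threshold allows, so some of the 385 and 147 calls may be false.

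Single genes show what stood behind the higher calls. Among genes with a mean CPM of 20 or more and an early mean of 20% or more, a limit chosen after the values were seen, Mcpt8, a mast cell and basophil protease, had the largest difference (5.54 log2, SE 0.443, limma adjusted p = 0.00168). Its rates were 45.5, 25 and 16.7% early, 38.2 and 32.1% on the path and 50, 40 and 27.8% late, so its early and late libraries overlapped. Its CPM is a mean over both genotypes, and the number of WT reads behind these rates is unknown. As for Mpo, such scatter allows no statement on its loss, whatever the p-value. Chil3 followed with 4.12 (SE 0.334, limma adjusted p = 0.00168), then Lxn, a carboxypeptidase inhibitor, with 3.69 and Rplp1, a protein of the ribosomal stalk, with 3.48. Rplp1 had 46.9, 54.3 and 55% early, 42.8 and 42.0% on the path and 29.0, 16.7 and 11.5% late. Wfdc17, a secreted inhibitor of myeloid cells, had 50.7, 49.4 and 48.4% early, 38.5 and 36.8% on the path and 25.1, 17.2 and 10.9% late (3.47 log2, SE 0.322, limma adjusted p = 0.00168). Unlike Mcpt8, Rplp1 and Wfdc17 fell in every late library below all early ones. Ndufa13, a gene of chromosome 8 (3.45), Cfp, the complement regulator properdin (3.42), Cd74, the invariant chain (3.38), Nucb1 (3.25) and Ndufa1 (3.25) came next. Nucb1 dropped from 25.3% at 18 h to 2.65% at 24 h.

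The largest differences by the rule for named genes, which set no limit on the early rate, belonged in most cases to intervals that carried little label at the start. They were Snx22 (5.79), Mcpt8, Fam166a (5.15), Cand2 (5.11), Pdzd9 (5.09), Sla2 (4.97), Acat3 (4.78), Ubxn11 (4.78), Mxd3 (4.78) and Rpgrip1 (4.75), in log2 units. Ubxn11, with a mean CPM of 481.38, had 0.273, 0.42 and 0.289% early, 0.359 and 0.376% on the path and 0.227, 0.265 and 0.28% late. Its mean was 0.327% early and 0.257% late. Sla2 likewise had 0.364, 0.454 and 0.534% early and 0.564, 0.566 and 0.227% late.

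Intervals with little early label were mostly those that overlap an exon of a gene on the opposite strand. Of 83 fitted genes with an early mean under 10%, 79 (95.2%) had such an overlap in the GENCODE M21 annotation, against 12.6% of the 5811 genes with an early mean of 20% or more. In the 13 genes under 1% early, 12 of them with an overlap, the median rate was 0.38% at 6 h and 0.448% late. Gsdme, a gasdermin chosen after its values were seen, was the exception without an overlap, at 0.34, 1.28 and 0.52% early and 0.2, 0.427 and 0.404% late. Whether the authors' counting used the strand is not stated in the sources used here, so reads of the 2 strands cannot be told apart for these intervals. Of the 385 higher genes, 37 had an early mean under 10%, 34 of them with an overlap, and 338 an early mean of at least 20%. The genes of chromosome 8 were higher more often, 45 of 335 (13.4%) against 6.03% of genes elsewhere, and the part of this in the counts was not tested; without chromosome 8 there were 328 higher and 125 lower.

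**Figure D4:**
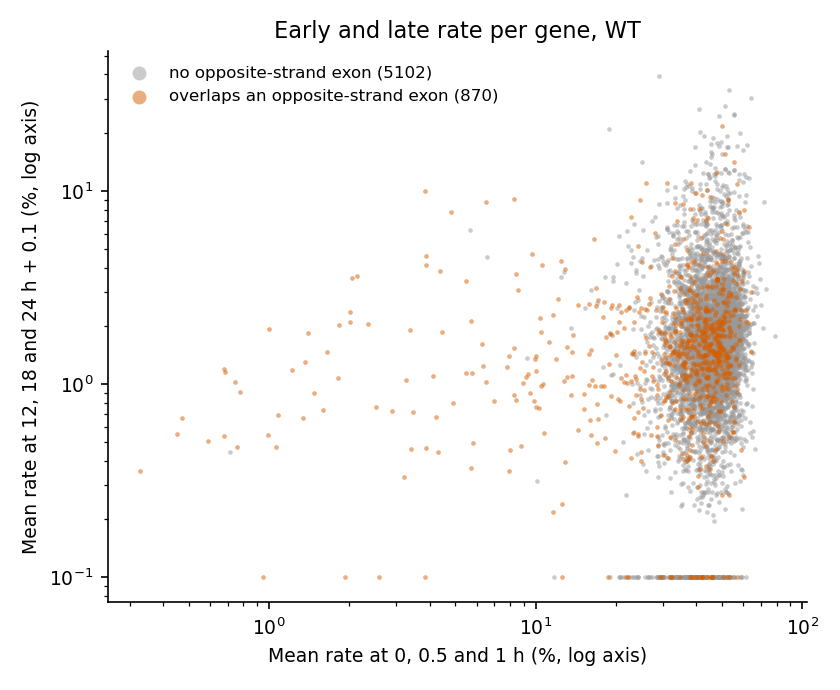
Mean late rate plus 0.1 percentage points (y, log axis) against mean early rate (x, log axis), both in percent, for 5972 genes in WT; orange points are the 870 genes whose interval overlaps an exon on the opposite strand. Of the 83 genes left of 10% on the x axis, 79 are orange, and the row of points at the bottom holds genes at 0 in all 3 late libraries.

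Genes called lower late were at the floor of the measurement. Of the 147, 138 had a rate of 0 in all 3 late libraries, and their median mean CPM was 7.35 against 13.67 over the fitted genes. At a CPM of 20 or more 3 passed. Asf1a, a histone chaperone, had 47.6, 43.1 and 35.5% early, 17.6 and 7.85% on the path and 0% in each late library (-3.68 log2, SE 0.749, limma adjusted p = 0.0229). Kdm6b, a histone demethylase, had 33.5, 21.9 and 31.0% early, 12.8 and 8.39% on the path and 0% late (-3.13, SE 0.775, limma adjusted p = 0.0442). Snx4, a sorting nexin, was above 0 throughout, with 42.4, 62.2 and 62.7% early, 45.6 and 16.3% on the path and 0.95, 0.177 and 0.258% late (-1.84, SE 0.429, limma adjusted p = 0.036). Scnn1a (-3.03, limma adjusted p = 0.0586) and Ube2n (-1.08, 0.0969) did not pass. In the YBX1-/- libraries 2 of the 147 were at 0 in all 3 late libraries. The 147 were picked on their WT rates, so this count does not compare the genotypes. At 6 h these 147 genes kept a median of 18.3% in WT, against 57.66% for the 385 higher genes. Over all fitted genes it was 22.74%.

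The same centred fit was used for the libraries at 3 and 6 h. No gene passed: 0 of 5972 were higher and 0 lower (0% each), with 490 at an unadjusted p under 0.05 and a smallest limma adjusted p of 0.0598. Every list above accordingly had 0 members called. In simulated data this fit recovered 0 or 1 of 100 genes changed by 1 log2, and 27 to 52 of 100 changed by 3 log2. The absence of calls thus does not show that genes lost label alike. Of the genes with a mean CPM of at least 20, the smallest p among those above the typical gene were those of Rps18 (1.3 log2, SE 0.25), Slc26a10 (2.58), Rpl4 (1.27, SE 0.257), Sem1 (1.31) and Tomm6 (1.43), each with a limma adjusted p of 0.448. On the other side were Prpf4b, a splicing kinase (-1.3, SE 0.423, limma adjusted p = 0.452), Mad2l1, a spindle checkpoint protein (-2.77), Hcfc1 (-0.91), Rpa2 (-2.11) and Rrm2 (-1.46). None of these 10 passed. Slc26a10 carried little label at the start, with 0.851, 1.27 and 0.84% early and 2.06 and 1.83% on the path. Its interval overlaps an exon on the opposite strand. Prpf4b had 52.2, 58.9 and 49.4% early, 7.20 and 6.44% on the path and 2.83, 1.75 and 0.752% late, and Rps18 34.9, 36.2 and 31.9% early, 32.5 and 22.2% on the path and 7.14, 3.33 and 2.53% late. At 3 h Prpf4b was far below its early libraries, and Rps18 lay within its early range.

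After this test called none, 5 other fits of the 3 to 6 h comparison were tried, and they gave different answers. Weights per group called 298 higher (4.99%) and 40 lower (0.67%), and the early and path libraries alone 467 and 77, with 485 and 82 at a pseudocount of 0.5 and 491 and 83 at a pseudocount of 1. The early and path libraries of both genotypes in one fit called 1 higher and 13 lower. With any early library left out, the higher calls fell to 0 both with weights and with the early and path libraries alone; with weights they also fell to 0 with any late library left out. The order of loss at 3 to 6 h therefore rests on the shares and on the other genotype below, not on calls for single genes.

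The YBX1-/- libraries, which the WT windows did not use, gave the same order at 6 h. At 3 h the YBX1-/- medians were 45.76% for loss by 3 h in WT, 66.35% for 3 to 6 h, 87.89% for 6 to 12 h and 86.62% after 12 h. The last of these were thus not in order at 3 h. Genes that had lost 50% of their label by 3 h in WT kept a median of 10.45% at 6 h in YBX1-/-, those of the window of 3 to 6 h 20.4%, those of 6 to 12 h 57.55% and those after 12 h 62.81%, beside 14.35% over all fitted genes. By list, ribosomal proteins kept 67.25% at 6 h in YBX1-/-, granule genes 57.25%, the respiratory chain 57.73%, short-lived regulators 7.49% and chromatin regulators 7.78%. The G2/M genes, lowest in WT, had 12.16%, above these last lists. At 3 h the G2/M genes kept 55.79% in YBX1-/-, near the 55.19% over all fitted genes. In WT they kept 32.87% at 3 h, below the 45.66% over all fitted genes. Across the fitted genes with a mean CPM of at least 20 and an early mean of at least 20%, the shares at 6 h in WT and YBX1-/- correlated with a Spearman rho of 0.84 (Pearson r 0.811). Across all 5970 genes with both shares, rho was 0.615. For the shares at 3 h, rho was lower, at 0.653 in the first set and 0.471 across the 5970 genes. Genes are not independent replicates, and the genotypes share the interval, its length and its mean CPM in these values.

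**Figure D5:**
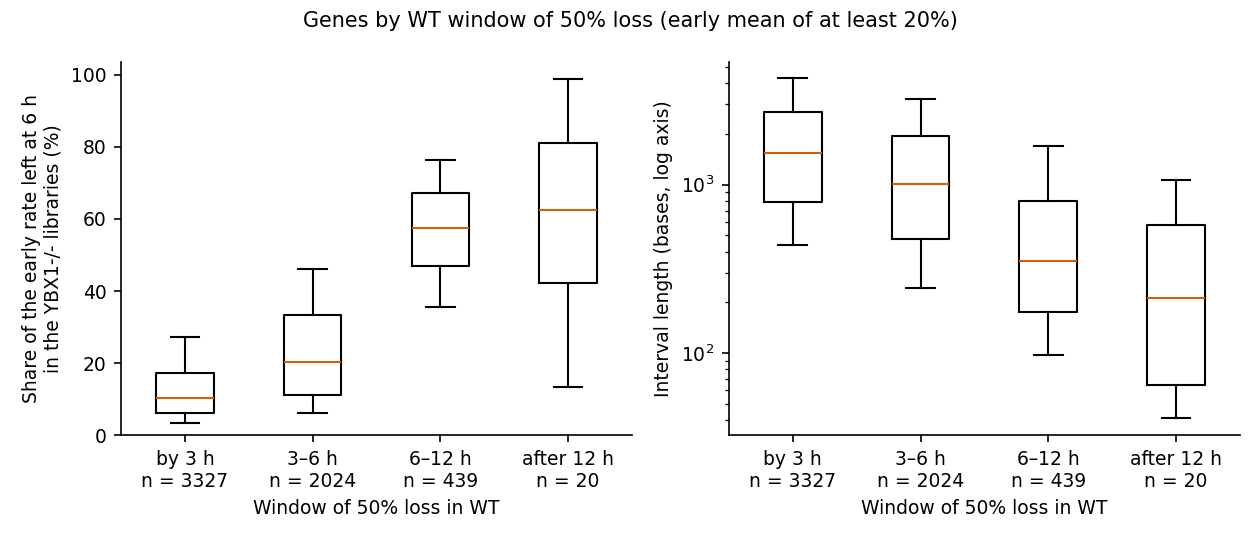
Genes with an early mean of at least 20%, grouped by the window of 50% loss in WT (x): share of the early rate left at 6 h in the YBX1-/- libraries (left, percent) and interval length (right, bases, log axis); boxes span the quartiles, lines are medians and whiskers reach the 10th and 90th percentiles. The median share rises from 10.36 to 62.49% and the median length falls from 1536 to 211 bases.

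Transcripts that lost 50% of their label between 6 and 12 h had shorter intervals, holding the searched motifs less often, than those that lost it sooner. The median interval was 1533.5 bases for loss by 3 h, 1024 for 3 to 6 h and 369.5 for 6 to 12 h. It was longer again in the smallest groups, with 447.5 bases in the 32 genes of loss after 12 h and 704 in the 6 genes that did not reach it. TGTANATA was present in 33.5%, 23.33% and 5.75% of the first 3 groups, TTATTTATT in 8.77%, 6.4% and 1.55%, ATTTA in 78.12%, 69.3% and 38.27%, and GGACT, a sequence in which m6A is often placed, in 74.71%, 60.43% and 32.96%. Longer sequence holds any motif more often. Within intervals of 1000 to under 2000 bases (961, 545 and 48 genes), GGACT was at 75.03%, 72.93% and 70.83%, and TTATTTATT at 7.39%, 7.37% and 4.17%. TGTANATA was at 29.86%, 25.05% and 8.33% there, and ATTTA at 84.5%, 86.56% and 70.83%. The last group holds 48 genes or fewer, and no test was made. The share at 6 h had a Spearman rho of -0.272 with interval length and 0.274 with mean CPM across the 5972 genes, as a description. Across the 1999 genes with a mean CPM of at least 20 and an early mean of at least 20%, rho was -0.396 and 0.315. The part of length, and of reads behind each rate, in the windows was not tested.

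The latest genes were few and mixed. Of the 38 that lost 50% after 12 h or not at all, 16 had an early mean under 10%, 15 of these with an opposite-strand overlap, and 21 an early mean of at least 20%, 7 of them on chromosome 8. Beside Chil3, Wfdc17, Ndufa13 (chromosome 8), Rplp1, Cfp, Nucb1 and Ndufa1, they included the ribosomal protein genes Rps15, Rpl39 and Rpl34 and the second lysozyme gene Lyz1. Rps15, Rpl39, Rpl34 and Lyz1 were chosen after their values were seen. Some intervals were very short, with 34 bases and 8 Ts in Rps15, 40 and 14 in Rplp1 and 41 and 6 in Ndufa13. That of Nucb1 was long, with 3379 bases and 846 Ts. Lyz1 had 70.9, 63.4 and 57.8% early, 54.2 and 57.0% on the path and 40.2, 30.4 and 19.4% late. It is a near copy of Lyz2, so the authors' counting could split reads between them. Igkc, an immunoglobulin constant region on the list of B cell markers, had 7.18, 5.25 and 7.30% early and 5.29, 4.04 and 4.08% late and did not reach 50% loss.

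Where the late loss differed between the genotypes was tested as an interaction over all 16 libraries. With limma, 8 of 5972 genes (0.134%) were higher and 11 (0.184%) lower in YBX1-/- than in WT, with 518 at an unadjusted p under 0.05. With chase time, which the genotypes share, as a block, limma called 0 genes in each direction, with 565 at an unadjusted p under 0.05, so the calls named here rest on the fit without it. Zfp330, a zinc finger gene of chromosome 8, had 65.1, 64.5 and 55.7% early and 16, 21.5 and 14.1% late in WT, against 37.9, 35.4 and 27.1% early and 1.90, 1.21 and 0.344% late in YBX1-/- (-3.46 log2, SE 0.517, limma adjusted p = 0.0232). N4bp2, Atg4a, an autophagy protease, and Dnmt3l, a cofactor of DNA methylation, were lower, and each was at 0 in all 3 late YBX1-/- libraries. Ttc13, Ddx24, Cd320, Dctpp1 and Sh3bp1 were higher, and each was at 0 in all 3 late WT libraries. Sizes that rest on such zeros depend on the 0.1 percentage points added. With any 1 WT early library left out, 0 genes were higher and 1 lower, and with any 1 late library of either genotype left out, 17 to 90 were higher and 21 to 109 lower. At 3 to 6 h the interaction called 0 genes in each direction (0%), with 47 at an unadjusted p under 0.05. Its smallest p belonged to Nusap1, a spindle protein, at 0 and 0% on the path in WT and 27.4 and 6.75% in YBX1-/- (6.71 log2, limma adjusted p = 0.489), which did not pass.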

How the data were processed

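Members, lists and tests were chosen with earlier results of these data known. Per the labels' protocols, polyA RNA was extracted with TRIzol and sequenced from NEBNext libraries; CASAVA, HISAT2 2.1.0 and the build GRCh38 are named in the submitters' processing notes, although samples and identifiers are mouse. The authors deposited, per interval, a T-to-C rate as a fraction (its denominator is not stated in the sources used here), and mean CPM and a mean coverage signal over libraries per the file headers. In 5961 of 5972 fitted intervals lying in 1 exon of a GENCODE M21 transcript, length and number of Ts equalled the deposited values, so coordinates are GRCm38, counted from 1. Rates were put in percent and log2(rate + 0.1) was fitted for 3 WT phases by limma (version 3.58.1, R 4.3.3) with its trend option, and on 16 libraries for the interaction; p-values are Benjamini-Hochberg adjusted over all fitted genes. Named genes are a fixed panel of 12, the 10 largest called changes per direction at a CPM of at least 20 (filled to 5 by smallest p), the 4 members per list with highest CPM, and the 5 smallest p per direction for interactions, without predicted, Rik or pseudogene names; from these the text prints a selection, and others are marked as chosen after their values were seen. The fits were tested on simulated data under 3 models of the spread; the late fit made more false calls than the threshold allows wherever phases differed in spread, every fit did when each gene had its own spread in each phase, and the fit of early and path libraries alone lay just above it otherwise. Of the fitted genes, 8 share their interval with another. Alternatives are in the closing section.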

Additional observations from a re-analysis of the deposited data

Results flagged for a closer look

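The late loss of label, YBX1-/- minus WT, differed between the genotypes by the interaction test (limma adjusted p under 0.05) in the genes of the naming rule listed here, in log2 units; none passed with chase time as a block. Ttc13 (4.94), Ddx24 (5.07), Cd320 (4.99), Dctpp1 (5.03) and Sh3bp1 (4.85) were higher in YBX1-/-. N4bp2 (-5.83), Zfp330 (-3.46), Babam1 (-3.73), Atg4a (-4.30) and Dnmt3l (-4.33) were lower. Babam1, a member of a DNA repair complex on chromosome 8, had 29.1, 16.5 and 26.9% in the late WT libraries and 2.22, 0.971 and 0.463% in those of YBX1-/-. Groups of 3 libraries were too small to look for single libraries that stand apart.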

How the results depend on the processing

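Both genotypes were sampled at the same times, and with chase time as a replicate block (added) the late interaction called 0 higher and 0 lower, and that at 3 to 6 h 0 and 0, with 69 at an unadjusted p under 0.05. Deviations from the phase mean of the 8 pairs correlated with r of 0.017 to 0.051 across genes, 0 of them above 0.1; a call lost under the block does not show a weaker effect. Alternatives noted as added were chosen after seeing the data, and the cause of each shift was not tested. The count of genes whose label fell (5906) was 2031 with a CPM of at least 20, 9631 with no minimum and 3560 with rates above 0 in every library, where other numbers of genes were tested, and 5862 to 5900 with 1 library left out. Genes holding more label late (385) were 757 with no minimum, 0 without centring and 135 with weights (added), and 136 to 631 with 1 library left out, or 0 to 176 with weights; the 0 came with any late library out. Genes holding less (147) were 50 and 21 at pseudocounts of 0.5 and 1, 18 at a CPM of at least 20, 491 with no minimum, 30 with rates above 0 in every library, 5906 without centring, 0 with weights, and 1 to 422 with 1 library left out.

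At 3 to 6 h (0 and 0) no minimum gave 22 higher and 283 lower. A pseudocount of 0.01, rates above 0 in every library, no chromosome 8, and, as added filters, an early mean of at least 20% and no opposite-strand overlap gave 1 lower each, and no centring 2. The added fits gave 467 and 77 (early and path libraries only), 485 and 82, and 491 and 83 (the same with pseudocounts of 0.5 and 1), 1 and 13 (both genotypes) and 298 and 40 (weights). With 1 library left out the range was 0 higher and 0 to 15 lower in the planned fit, 0 to 1212 and 0 to 1032 with early and path libraries only, and 0 to 941 and 1 to 731 with weights; the weights did not converge with a path library left out.

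The late interaction (8 higher, 11 lower) was 46 and 28 at a pseudocount of 0.01, 0 and 4 at 0.5, 1 and 7 at 1, 1 and 0 at a CPM of at least 20, 49 and 25 with no minimum, 0 and 3 with rates above 0 in every library, 46 and 23 with no trend and 0 and 0 without centring. Weighted intervals gave 5 higher, no chromosome 8 gave 7 lower, and no opposite-strand overlap 4 higher. With 1 library left out the ranges were 0 to 90 higher and 1 to 109 lower. The interaction at 3 to 6 h (0 and 0) was 28 higher with no minimum, 2 higher with early and path libraries only, and 0 to 4 higher and 0 to 3 lower with 1 library left out.

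Median shares left at 3 h, 6 h and late (45.66, 22.74 and 3.34%) were 53.5 and 26.65% at a CPM of at least 20, 40.31% at 3 h and 3.02% late with no minimum, and 50.37, 25.07 and 3.91% with rates above 0 in every library; with 1 library left out they were 44.66 to 48.04, 22.2 to 23.9 and 2.34 to 3.8%. Loss of 50% by 3 h (57.17% of genes) was 43.21% at a CPM of at least 20 and 49.47% with rates above 0 in every library. Windows of 50% loss moved at a CPM of at least 20 (13.58% for 6 to 12 h, 0.24% not reached), with rates above 0 in every library (0.17% not reached), with an early mean of at least 20% (0.34% after 12 h, 0.02% not reached) and with no opposite-strand overlap (0.04% not reached). With 1 library left out they ranged over 0 to 59.28% by 3 h, 26.57 to 90.69% for 3 to 6 h, 6.95 to 15.52% for 6 to 12 h, 0.4 to 0.9% after 12 h and 0.08 to 0.23% not reached; the 0 and 90.69% came with the 3 h library out, since nothing then lies between 1 and 6 h. Leaving out the centring shifts every gene of a contrast by the same amount, so the negative differences it gives for 9 named genes say nothing of these genes: Sla2 (-0.059), Acat3 (-0.24), Ubxn11 (-0.24), Mxd3 (-0.25) and Rpgrip1 (-0.28) late, and Rps18 (-0.35), Rpl4 (-0.38), Sem1 (-0.34) and Tomm6 (-0.22) at 3 to 6 h. Depth per library is unknown, so zeros late limit what can be said of genes with low CPM.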
